A study of Mus musculus with 48 samples.

Results

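The 10 genes described here encode proteins that bring fatty acids into cells or carry them inside: Cd36, Fabp1, Fabp2, Fabp4, Slc27a1, Slc27a2, Slc27a4, Slc27a5, Vldlr and Gpihbp1. They were chosen by symbol, for what their proteins do, with earlier results of these data known. All 10 were found once among the 56748 Ensembl identifiers of the deposited count files. RNA of 3 tissues from male littermate mice had been sequenced in 48 libraries: liver, the heat-producing brown fat (BAT) and the epididymal depot of white fat (eWAT). There were 12 groups of 4 libraries, 1 for each tissue, genotype and housing temperature. Control littermates are labelled hepAGT+/+ (here WT) and mice with a hepatocyte deletion of the angiotensinogen gene Agt are labelled hepAGT-/- (KO). Mice were kept either at an ordinary room temperature of 20 to 22 °C (RT) or at 30 °C, their thermoneutral zone (TN), where they need little extra heat production. Every group, the controls included, spent 12 weeks on a Western diet (0.2% cholesterol, 21% milk fat), so no group shows the genes on an ordinary diet. All groups also shared a cycle of 14 hours of light and 10 hours of dark. The labels name neither the promoter that drives the deletion nor the age of the mice. Each library is labelled as a biological replicate with a number, without saying whether a number shared between tissues is 1 animal, and p-values measure the spread between these libraries.

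Long-chain fatty acids reach tissues either bound to albumin or inside lipoproteins. Lipoprotein lipase, held on the capillary wall by GPIHBP1, frees them from lipoproteins, and the VLDL receptor binds the particles. CD36 is a membrane receptor that eases uptake, the SLC27 (FATP) proteins trap fatty acids by joining them to coenzyme A, and the FABP proteins bind them in the cytosol. FABP1 is the major form of hepatocytes and FABP4 that of adipocytes, while FABP2 is best known from intestine. In liver, CD36 is known for rising in fatty liver and as a target of the nuclear receptor PPARgamma. In brown fat these proteins feed heat production.

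Agt served as the check of the genotype labels in liver, and the labels of the BAT and eWAT libraries were not checked in this way. In liver its level, in CPM (counts relative to the library total, with TMM scaling within the tissue), was 276 to 503 in the 8 WT libraries and 125 to 207 in the 8 KO libraries, with no overlap. Its log2 change was -1.14 at RT (adjusted p = 0.0096 by edgeR) and -1.29 at TN (adjusted p = 0.00113), so Agt RNA was lower but still present in KO liver, and which exons are deleted is not given in the sources used here. In eWAT mean Agt was higher in KO, at 156.6 ± 30.3 CPM (SD) against 92.3 ± 25.65 CPM in WT at RT. At TN it was 170.4 ± 44.0 CPM in KO against 65.85 ± 51.2 CPM in WT. Depth ran from 23711728 to 43687848 counts per library. Tissue identity matched the labels, with Alb at 37600 CPM or more in liver, Ucp1 at 1110 CPM or more in BAT and Adipoq at 2597 CPM or more in eWAT. BAT and eWAT libraries held varying amounts of liver transcripts, with Alb from 3.05 to 1450 CPM in BAT and from 22.3 to 2882 CPM in eWAT. Some libraries stood apart. Liver KO RT replicate 19 was the only liver library with Adipoq, at 3.00 CPM. Liver KO TN replicates 4 and 5 had summed macrophage markers of 351 and 369 CPM, against 114 to 203 CPM in the other liver libraries. BAT WT RT replicate 12 had 8640 CPM of summed brown adipocyte markers, the lowest of its group. The eWAT WT RT replicate 18 had 928 CPM of epididymis markers, against at most 16.3 CPM elsewhere in eWAT.

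RefSeq promoter windows (GRCm38.p6) were at hand for 7 of the 10 genes. The 250 bases before each start were searched on both strands for the motif bound by PPAR with RXR, AGGTCA followed after 1 base by another AGGTCA, allowing 2 mismatches. Of the 10 windows of these genes, 2 held a match. There was 1 before the RefSeq start of Cd36, which carries the main liver result, and 1 before that of Fabp1, the most abundant of the genes in liver. Each match is shown with its neighbouring bases, 5′ to 3′ on the gene's strand, with the matched bases in capitals and the sequence trimmed where a GENCODE exon begins.
Cd36: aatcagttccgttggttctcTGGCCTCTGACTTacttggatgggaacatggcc
Fabp1: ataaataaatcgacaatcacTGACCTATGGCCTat
The Cd36 stretch is chr5:17835927-17835979 on the minus strand, and its match has 2 mismatches and lies 63 to 51 bases before the RefSeq start. Both the stretch and that start lie inside the GENCODE gene interval given further on, far downstream of its first base. The Fabp1 stretch is chr6:71199792-71199826 on the plus strand, and its match has 1 mismatch and lies 67 to 55 bases before the RefSeq start, which is downstream of the first base of the GENCODE gene given further on. Both matches read as the repeat on the opposite strand. Among all 32851 windows, 3.24% held a match with up to 2 mismatches and 0.0335% an exact one. A match describes letters and does not by itself show binding, which was not measured here.

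Across tissues the genes fell into a liver set and an adipose set, with Slc27a4 within 1.40-fold over all 3 tissues in a fit of all libraries. Levels were compared by edgeR's quasi-likelihood test over all 48 libraries, with Benjamini-Hochberg adjustment over 21910 genes. Folds between tissues come from this fit, which scales all libraries together. They differ from ratios of the printed CPM, which were scaled within a tissue. In those CPM Slc27a4 averaged 32.3 in liver, 24.95 in BAT and 46.9 in eWAT. Of the 10 genes, 9 differed between liver and eWAT, beside 73.8% of all genes tested, 10 between liver and BAT, beside 68.6%, and 6 between BAT and eWAT, beside 60.3%. Beside a background this high the counts say little of the members, and the sizes are given instead. The fatty acid binding proteins were sharply divided, with Fabp4 showing the largest difference of the 10 genes. Fabp4 (chr3:10204088-10208576, minus strand, GRCm38 with GENCODE M21 as all gene positions here) was 511-fold lower in liver than in eWAT (log2 difference -9.00 ± 0.29 SE), and its BAT level was not distinguishable from eWAT (-0.31 ± 0.20, adjusted p = 0.194). Fabp1 (chr6:71199827-71205023, plus strand) was 107-fold higher in liver than in eWAT, at 6.75 ± 0.79. Fabp2 (chr3:122895072-122899506, plus strand) was 123-fold higher, at 6.94 ± 0.71.

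The transporters divided in the same 2 directions. Slc27a2 (chr2:126552407-126588243, plus strand) and Slc27a5 (chr7:12988346-12998192, minus strand), the latter a bile acid CoA ligase as well as a transporter, were 165-fold and 172-fold higher in liver than in eWAT. Slc27a1 (chr8:71568882-71587302, plus strand), the main form of fat and muscle, was 20.8-fold lower in liver. Slc27a4 (chr2:29802634-29817522, plus strand), a widely expressed form, differed by -0.02 log2 between liver and eWAT (95% interval -0.17 to 0.14, adjusted p = 0.867). Cd36 (chr5:17781690-17888801, minus strand) was 21.7-fold lower and Vldlr (chr19:27216484-27254231, plus strand) 24.3-fold lower in liver than in eWAT. Gpihbp1 (chr15:75596628-75599481, plus strand), an endothelial gene, was 2.46-fold lower in liver and 1.72-fold higher in BAT than in eWAT. The summed level of 8 endothelial markers was 102 to 214 CPM in liver, 236 to 1350 CPM in BAT and 261 to 724 CPM in eWAT. Both this sum and Gpihbp1 were lowest in liver. Between BAT and eWAT, the median sum and the mean Gpihbp1 CPM went opposite ways in both genotypes at RT and the same way at TN. The part of these markers in the Gpihbp1 differences between tissues was not tested.

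Per kilobase of the longest coding transcript, Fabp1 led in liver with a mean of 7961 CPM per kb over the 16 libraries, followed by Slc27a2 at 579.6, Slc27a5 at 326, Fabp2 at 284 and Cd36 at 40.5 CPM per kb. In both fat depots Fabp4 led and Cd36 came next. Fabp4 averaged 9254 CPM per kb in BAT and 14760 in eWAT, and Cd36 averaged 582.5 and 1160. The order further down differed between the depots. In BAT it ran Slc27a1 (66.5 CPM per kb), Gpihbp1 (63.8), Slc27a2 (50.6), Fabp1 (47.8) and Vldlr (21.85). Differences between neighbouring genes in these orders were not tested. At the bottom stood Vldlr in liver with 0.579 CPM per kb, Fabp2 in BAT with 1.26 and Slc27a5 in eWAT with 3.55.

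**Figure D1:**
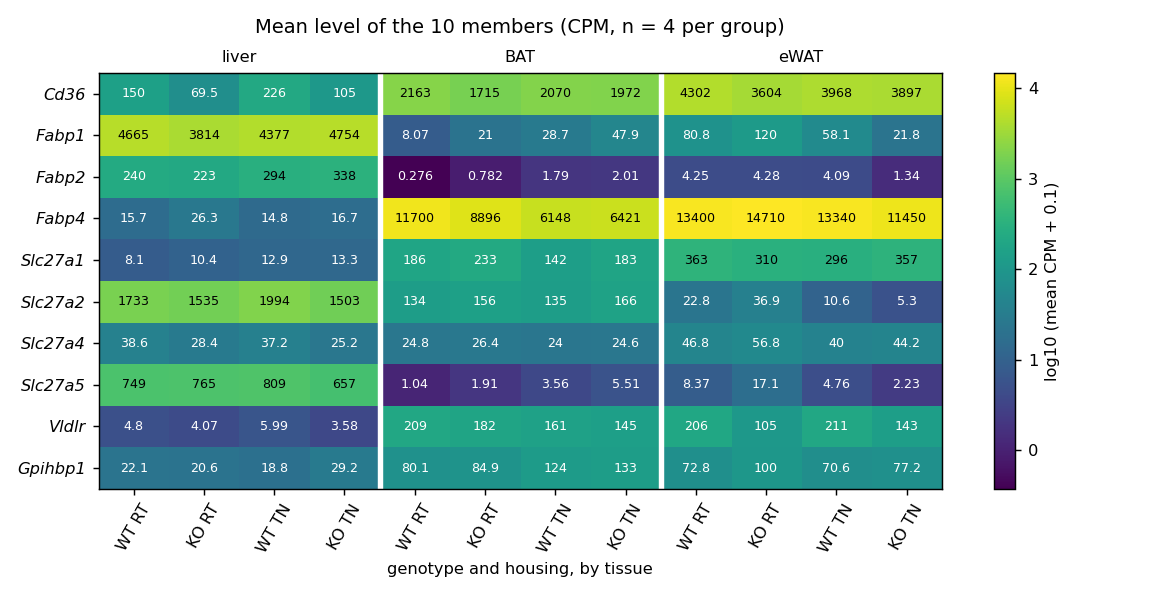
Mean level of each gene in each of the 12 groups (4 libraries each), as CPM printed in the cells and as colour on a log10 scale, with genes in rows and groups of genotype and housing in columns by tissue. Fabp4 has the highest value in the fat depots (14710 CPM in eWAT KO RT) and Fabp1 in liver (4754 CPM in KO TN), and scaling was done within each tissue.

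In the fat depots 3 genes of the liver set had median ratios to hepatocyte transcripts close to those in liver, with wide ranges over the libraries. Fabp1 ranged from 0.232 to 154.5 CPM in BAT and from 0.557 to 285 CPM in eWAT, libraries of every group included. Set against the summed CPM of 10 hepatocyte markers in the same library, Fabp1 had a median share of 4.95% in liver, 5.37% in BAT and 6.58% in eWAT. Its share ran from 2.85 to 6.89% in liver, 1.93 to 7.11% in BAT and 1.89 to 11.2% in eWAT. Fabp2 had median shares of 0.299%, 0.223% and 0.341%, with ranges of 0.171 to 0.463% in liver, 0 to 0.480% in BAT and 0 to 0.738% in eWAT. Slc27a5 had medians of 0.833%, 0.632% and 0.672%, with ranges of 0.650 to 1.07%, 0 to 1.48% and 0 to 1.04%. Fabp2 had no count in 5 BAT and 3 eWAT libraries and Slc27a5 had none in 2 BAT libraries and 1 eWAT library. A count of 0 allows up to 3 counts, or 0.0888 to 0.119 CPM in these libraries. Of 7 enterocyte markers, Sis, Alpi and Cdx2 were at 0 in all 48 libraries, while Vil1 reached 1.36 CPM in BAT and 6.66 CPM in eWAT. The 7 summed to 0.276 to 18.3 CPM in BAT and 0.300 to 31.5 CPM in eWAT, and to 290 to 3020 CPM in liver, where Apoa4, an apolipoprotein that liver also makes, carried the sum. No genotype or housing change of Fabp1, Fabp2 or Slc27a5 was called in fat, and the part of hepatocyte or enterocyte transcripts in their values there was not tested.

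Slc27a2 in BAT did not keep that ratio. There it lay between 78.9 and 269.7 CPM, a narrow range, while hepatocyte markers in the same libraries ran from 7.76 to 2440 CPM. Its median share of the hepatocyte sum was 51.0% in BAT, against 1.93% in liver and 1.82% in eWAT. It was 13.3-fold higher in BAT than in eWAT (log2 difference 3.73 ± 0.42 SE, adjusted p = 9.53e-10 by edgeR). A limit of that value is the counting: 419 exonic bases of Slc27a2 overlap the lincRNA Gm26697 on the opposite strand, 12.6% of its 50-base words are shared with it, and the strand setting is not stated. Reads of the 2 genes there cannot be told apart, and Gm26697 was not analysed here. Slc27a1 shared 1.56% of such words with 176 other genes, and the other 8 members shared none.

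**Figure D2:**
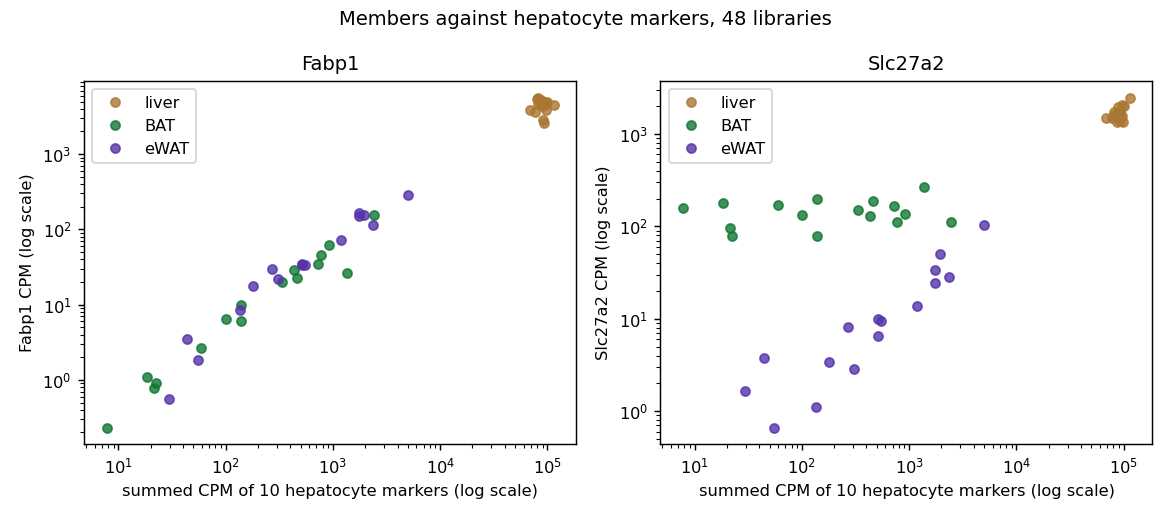
Level of Fabp1 (left) and Slc27a2 (right) against the summed level of 10 hepatocyte markers, both in CPM on log axes, 1 point per library and 48 libraries coloured by tissue. Fabp1 falls on a line through all tissues, while Slc27a2 in BAT stays between 78.9 and 269.7 CPM over the whole range of marker levels.

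Cd36 in liver had the largest averaged genotype change among those called in any tissue. At RT its 4 WT libraries had 192, 107.5, 136 and 167 CPM and its 4 KO libraries had 87.4, 51.5, 53.1 and 86.0 CPM. At TN the WT libraries had 225.5, 268, 252 and 158 CPM and the KO libraries 76.7, 136, 93.4 and 116 CPM. At each temperature every KO library lay under every WT library. The means were 150.4 ± 36.6 (SD, n = 4) against 69.5 ± 19.9 CPM at RT, and 226 ± 48.6 against 105 ± 25.8 CPM at TN. Averaged over both temperatures Cd36 fell 2.15-fold in KO liver (log2 change -1.11 ± 0.16 SE, adjusted p = 0.00101 by edgeR over 17594 genes). The change was -1.11 at RT (adjusted p = 0.0826) and -1.10 at TN (adjusted p = 0.0159), and the test of their difference gave 0.02 with a 95% interval of -0.66 to 0.69. The RT change missed the threshold with edgeR and passed it with DESeq2 (adjusted p = 0.000944), and also with edgeR without WT RT replicate 12 (0.0400) or without WT TN replicate 24 (0.0450). Leaving out WT TN replicate 6 ended the TN call (-1.005, adjusted p = 0.0544).

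Markers of other cell types were read beside the Cd36 values. In bulk tissue, fewer cells of a type and less RNA per cell cannot be told apart. Of 7 adipocyte markers, Adipoq was at 0 in 15 of the 16 liver libraries and Plin1 in 13. The summed level of the 7, carried in liver by Cfd and Cidec, was 78.3 to 164 CPM in WT RT, 6.23 to 61.7 in KO RT, 176 to 257 in WT TN and 38.7 to 195 CPM in KO TN. The ranges of WT and KO did not overlap at RT and overlapped at TN. Of these 7 markers 4 were tested, and 1 was called lower and 0 higher in KO in the average (median log2 change -0.80). The part of these markers in the Cd36 result was not tested. Summed macrophage markers had medians of 177 CPM in WT RT, 157 in KO RT, 157 in WT TN and 277 in KO TN, and of the 7 markers 1 was called higher in KO at TN and 0 lower. The enterocyte list, carried in liver by Apoa4, had median sums of 972 CPM in WT RT, 375 in KO RT, 2130 in WT TN and 820 CPM in KO TN. WT and KO did not overlap at RT (878 to 2070 against 290 to 397 CPM) and overlapped at TN (966 to 3020 against 708 to 1140 CPM), and its 1 marker tested was called lower in KO in the average, at -1.51. Of 7 brown adipocyte markers 4 were tested and 0 called by genotype, and their sums overlapped at RT and did not at TN (287 to 329 CPM in WT against 149 to 221 CPM in KO). The part of macrophage, enterocyte and brown adipocyte markers in the Cd36 result was not tested. Without KO TN replicate 4 or 5, the libraries with high macrophage markers, the averaged Cd36 change was -1.18 and -1.08.

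Slc27a4, the acyl-CoA synthetase found at like levels in liver and eWAT in the fit of all libraries, was the only other member called in liver. Its WT RT libraries had 34.6, 32.0, 47.95 and 39.9 CPM and its KO RT libraries 34.8, 25.9, 28.4 and 24.35 CPM. At TN the WT libraries had 40.3, 37.95, 38.4 and 32.05 CPM and the KO libraries 31.0, 24.9, 20.1 and 24.9 CPM. The groups overlapped at RT through KO replicate 9 and did not overlap at TN. Averaged over temperatures Slc27a4 fell 1.42-fold (log2 change -0.50 ± 0.11 SE, adjusted p = 0.0112 by edgeR). At RT the change was -0.44 (adjusted p = 0.296) and at TN -0.56 (adjusted p = 0.0533). The TN value passed with DESeq2 (0.0244), with only the 8 libraries compared (0.0483), and without KO RT replicate 9 (0.0459), WT RT replicate 15 (0.0403), KO TN replicate 2 (0.0372) or WT TN replicate 24 (0.0430). The balance of short and long transcripts was read beside these values. It was taken for each library as the median log2 deviation of 587 genes with coding transcripts under 1000 bases minus that of 4077 genes over 4000 bases, a measure chosen after its values were seen. Its median was -0.01 in WT RT, 0.05 in KO RT, -0.17 in WT TN and 0.29 in KO TN, and at TN the groups overlapped (-0.56 to 0.03 in WT, -0.08 to 0.34 in KO). The Slc27a4 transcript has 4054 bases, so it belongs to the long genes, which stood lower against the short ones in KO TN by median. The part of this balance in the Slc27a4 result was not tested.

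The other liver members gave no call. At TN, Slc27a2 averaged 1503 ± 187 CPM in KO against 1994 ± 399 CPM in WT, a log2 change not past the threshold (-0.41 ± 0.15 SE, adjusted p = 0.140 by edgeR), which passed only without WT TN replicate 24 (-0.53, 0.0419). Slc27a5 averaged 809 ± 121 CPM in WT and 657 ± 77.5 CPM in KO (-0.30 ± 0.13, adjusted p = 0.230). Gpihbp1 averaged 29.2 ± 10.2 CPM in KO against 18.8 ± 3.39 CPM in WT (0.63 ± 0.21, adjusted p = 0.0995), and it passed without KO TN replicate 5 (0.82, 0.0187). Endothelial markers summed to 116 to 163 CPM in WT TN and 144 to 214 CPM in KO TN, and their part in the Gpihbp1 value was not tested. The averaged log2 change of Fabp1, the dominant liver member, was -0.09 with a 95% interval of -0.36 to 0.19, and that of Fabp2 was 0.05 with an interval of -0.29 to 0.38. Liver Fabp4 was between 7.70 and 23.5 CPM in 15 libraries and at 75.96 CPM in KO RT replicate 19, the library that also held Adipoq, the most Plin1 (5.81 CPM) and Ucp1 (14.7 CPM, against 0 in the other liver libraries).

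Counted over the 10 members, edgeR called 0 in liver at RT, beside 0.0853% of all genes tested, with 2 at an unadjusted p under 0.05 and 1 called by DESeq2. At TN it called 1, beside 3.18%, and averaged over both temperatures 2, beside 5.19%. The groups did not overlap for 1 member at RT, beside 5.83% of all genes, and for 2 at TN, beside 12.5%. The median log2 change of the 10 was -0.11 in the average, beside 0.04 over all genes.

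**Figure D3:**
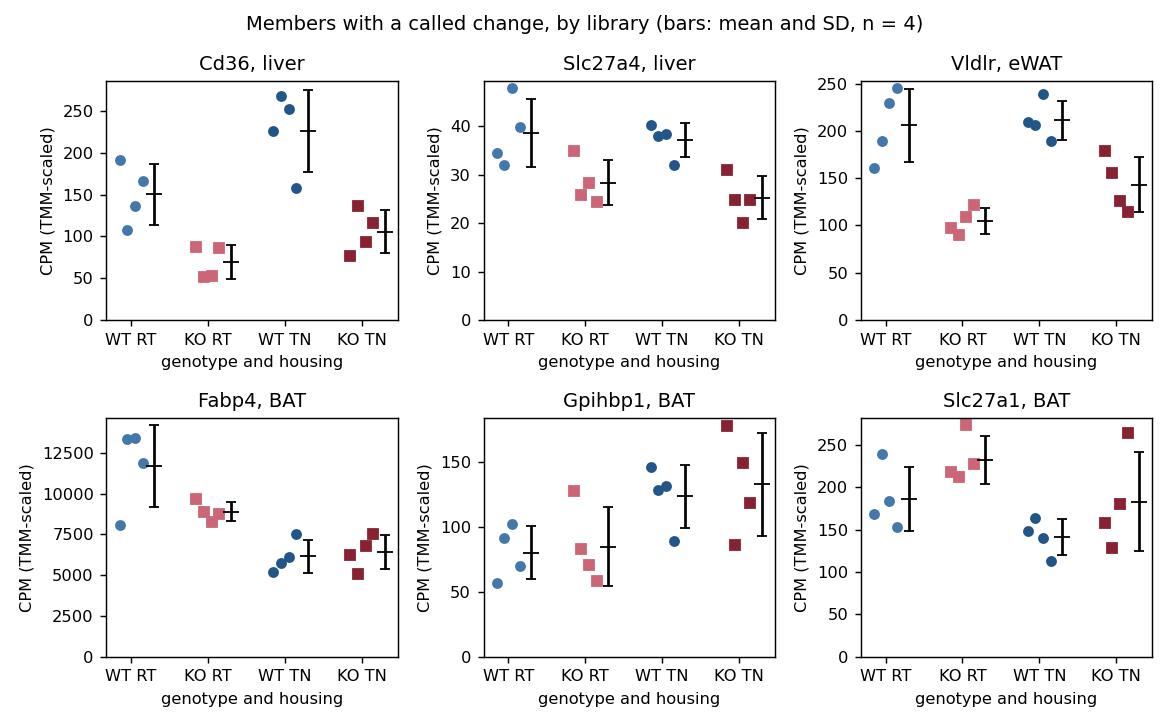
Level in CPM (vertical axes, from 0) of the 6 gene and tissue pairs with a call, 1 point per library by genotype and housing, with bars for the mean and SD of 4 libraries. In liver every KO library lies under every WT library of its temperature for Cd36, in eWAT the same holds for Vldlr, and in BAT Fabp4 is lower and Gpihbp1 higher at TN.

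In eWAT the called member was Vldlr, the receptor that binds triglyceride-rich lipoproteins. At RT its WT libraries had 161, 189, 229 and 245 CPM and its KO libraries 97.0, 90.3, 109 and 122 CPM. At TN the WT libraries had 209.7, 206, 238.5 and 189.7 CPM and the KO libraries 178.5, 155, 125 and 114 CPM. KO lay under WT without overlap at both temperatures. Vldlr fell 1.97-fold at RT (log2 change -0.98 ± 0.15 SE, adjusted p = 0.00257 by edgeR over 18933 genes) and 1.70-fold in the average (-0.77 ± 0.11, adjusted p = 0.000599). The TN change of -0.56 ± 0.15 missed the threshold (adjusted p = 0.0888) and passed it with DESeq2 (0.0167), and its difference from the RT change was 0.42 (95% interval -0.03 to 0.87, adjusted p = 0.680). Without replicate 18 of WT RT, the library with epididymis markers, the RT change was -0.85 (0.0164). Summed adipocyte markers overlapped, at 15300 to 17400 CPM in WT RT and 15900 to 23100 CPM in KO RT. They overlapped at TN as well (15000 to 18600 CPM in WT, 14700 to 21000 CPM in KO). Of 7 adipocyte markers, 2 were called higher and 1 lower in KO in the average. Macrophage markers summed to 708 to 1050 CPM in WT RT and 559 to 773 CPM in KO RT, which overlap. At TN they summed to 1100 to 1820 CPM in WT and 849 to 1000 CPM in KO, which do not. Of these 7 markers, 5 were called lower in KO in the average. The part of the adipocyte and macrophage markers in the Vldlr result was not tested.

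The remaining eWAT members were not called by genotype. Cd36 had 4070, 3937, 4704 and 4496 CPM in WT RT and 3573, 3918, 3331 and 3593 CPM in KO RT, which do not overlap (log2 change -0.26 ± 0.12 SE, adjusted p = 0.261 by edgeR). At TN its change was -0.03 ± 0.12. Gpihbp1 was at 72.8 ± 21.5 CPM in WT RT and 100.5 ± 17.5 CPM in KO RT (0.46 ± 0.20, adjusted p = 0.217), and passed without WT RT replicate 12 (0.68, 0.0495). Fabp4, the most abundant member of the depot, had an averaged change of -0.04 with an interval of -0.34 to 0.25. Of the 10 members edgeR called 1 at RT, beside 4.34% of all genes, and 1 in the average, beside 8.46%. At TN it called 0, beside 0.586%, with 1 at an unadjusted p under 0.05 and 1 by DESeq2. Non-overlap held for 2 members at RT, beside 10.9%, and for 1 at TN, beside 9.51%.

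In BAT no member was called by genotype with either tool. The edgeR count was 0 of 10 at RT, beside 0.0887% of all genes, 0 at TN, beside 0.0%, and 0 in the average, beside 0.0%. At an unadjusted p under 0.05 there were 0, 0 and 1 members. That 1 was Slc27a1, with an averaged log2 change of 0.35 ± 0.14 SE (adjusted p = 0.295). Cd36 was at 2163 ± 411 CPM in WT RT and 1715 ± 109.5 CPM in KO RT (-0.33 ± 0.16, adjusted p = 0.265). No pair of groups was free of overlap, beside 9.26% of all genes at RT and 3.39% at TN.

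Whether a genotype effect differed between tissues was tested over all 48 libraries. It did for Cd36 (adjusted p = 0.000876, edgeR F test over 3 tissues), whose averaged log2 change was 0.98 lower in liver than in eWAT (-0.98 ± 0.18 SE) and 0.91 lower than in BAT (-0.91 ± 0.18). Slc27a4 differed too (adjusted p = 0.00921), with a liver change below that of eWAT by -0.72 ± 0.16. In eWAT Slc27a4 had an averaged change of 0.21 ± 0.09 (adjusted p = 0.146), the opposite sign to liver. For Vldlr the difference between tissues was not shown (adjusted p = 0.551), with averaged changes of -0.77 in eWAT, -0.49 in liver and -0.18 in BAT. These 2 of 10 stand beside 3.88% of all genes. With a replicate block, which takes a number shared between tissues as the same animal, only Cd36 kept such a call.

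**Figure D4:**
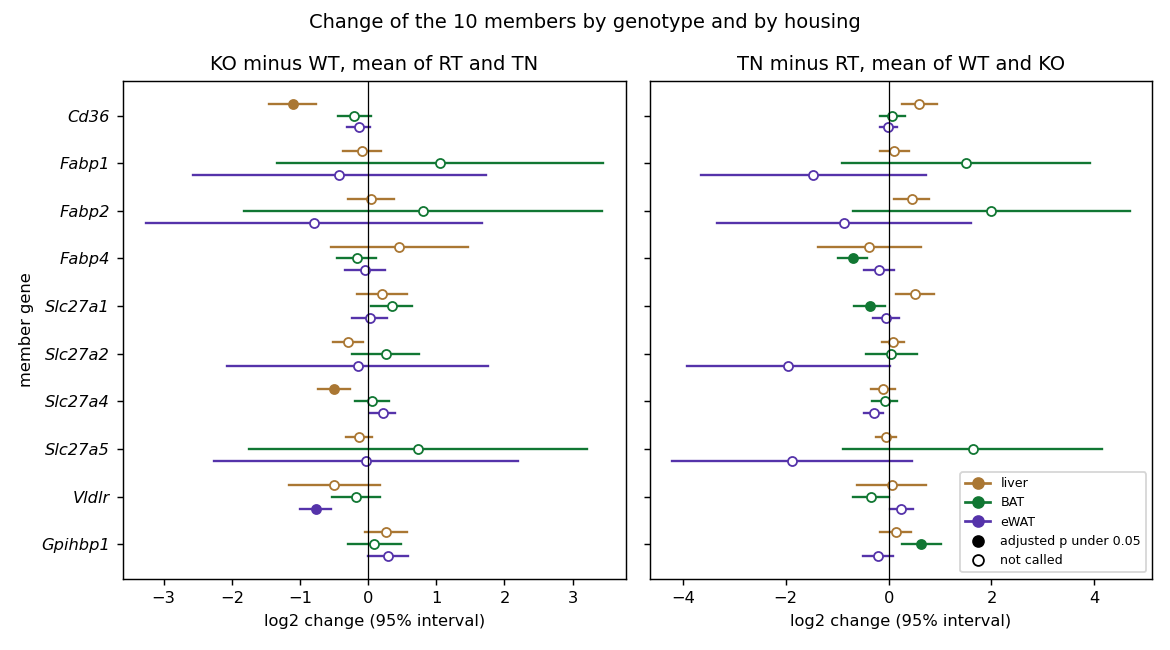
Log2 change of each gene by genotype (left, KO minus WT, mean of RT and TN) and by housing (right, TN minus RT, mean of WT and KO) in the 3 tissues, with 95% intervals and filled points for an adjusted p under 0.05. Filled on the left are Cd36 and Slc27a4 in liver and Vldlr in eWAT, and on the right Fabp4, Slc27a1 and Gpihbp1 in BAT; the wide intervals belong to the liver genes in fat.

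Housing changed members in BAT. Fabp4, the cytosolic carrier of adipocytes, had 8104, 13380, 13410 and 11910 CPM in WT RT and 5200, 5763, 6120 and 7511 CPM in WT TN. In KO it had 9701, 8853, 8251 and 8779 CPM at RT and 6233, 5091, 6811 and 7549 CPM at TN. Every TN library lay under every RT library of its genotype. Fabp4 fell 1.62-fold at TN in the average of the genotypes (log2 change -0.70 ± 0.14 SE, adjusted p = 0.000523 by edgeR over 18032 genes). The change was -0.93 ± 0.19 in WT (adjusted p = 0.00141) and -0.47 ± 0.19 in KO (adjusted p = 0.112), and the difference between them was 0.46 (interval -0.11 to 1.03, adjusted p = 0.554).

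Several properties of the BAT libraries moved with housing beside Fabp4. Brown adipocyte markers summed to 8640 to 18400 CPM in WT RT and 9320 to 14100 CPM in KO RT, against 3090 to 7280 CPM in WT TN and 3130 to 5520 CPM in KO TN. Macrophage markers, 7 of 7 called higher at TN in the average, summed to 42.9 to 149 CPM in WT RT, 55.3 to 64.4 in KO RT, 181 to 334 in WT TN and 145 to 203 CPM in KO TN. The balance of short and long transcripts, described above for liver and taken in BAT over 584 short and 4322 long genes, moved as well. Its median was 0.69 in WT RT, 0.13 in KO RT, -0.52 in WT TN and -0.23 in KO TN. The Fabp4 transcript has 896 bases, so it belongs to the short genes, which stood higher at RT. WT RT replicate 12, at -0.20 against 0.62 to 0.94 in its group, also had the lowest Fabp4 of that group. Of 7 white and general adipocyte markers, 2 were called higher and 2 lower at TN in the average. Their sums overlapped between RT and TN in WT (2840 to 4570 and 2650 to 4030 CPM) and in KO (2720 to 3330 and 3090 to 5370 CPM). The part of the transcript balance and of the brown adipocyte, macrophage and general adipocyte markers in the Fabp4 result was not tested. Without replicate 12 the averaged Fabp4 change was -0.77 and its call held.

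Gpihbp1, the capillary anchor of lipoprotein lipase, was higher in BAT at TN. It had 56.95, 91.65, 102 and 69.9 CPM in WT RT and 146, 128, 132 and 89.25 CPM in WT TN. In KO it had 127.5, 83.0, 71.0 and 58.1 CPM at RT and 178, 86.1, 149 and 118 CPM at TN. The groups overlapped in both genotypes, through WT TN replicate 24 and KO RT replicate 9. Gpihbp1 rose 1.55-fold in the average (log2 change 0.64 ± 0.18 SE, adjusted p = 0.0106 by edgeR), with 0.63 in WT (adjusted p = 0.0721) and 0.64 in KO (0.106). The WT change passed with DESeq2 (0.0462), with only the 8 libraries compared (0.0336), and without KO RT replicate 9 (0.0424), KO TN replicate 3 (0.0418) or WT TN replicate 24 (0.0358). The KO change passed without KO RT replicate 9 (0.91, 0.0210) or KO TN replicate 3 (0.83, 0.0304). Of 8 endothelial markers, 5 were called higher at TN in the average. They summed to 236 to 563 CPM in WT RT, 537 to 1280 in KO RT, 363 to 1110 in WT TN and 725 to 1350 CPM in KO TN. As a share of that sum Gpihbp1 had a median of 30.6% in WT RT, 9.50% in KO RT, 15.0% in WT TN and 13.5% in KO TN. By median the share was lower at TN in WT and higher at TN in KO. Its ranges at RT and TN overlapped in WT (10.1 to 38.3% and 13.2 to 24.6%) and in KO (8.84 to 13.2% and 11.1 to 16.3%). The part of the endothelial markers in the result was not tested.

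Slc27a1 was the third BAT member called, and the least stable. It had 169, 239.8, 183.5 and 153 CPM in WT RT, 149, 164, 139.9 and 113 CPM in WT TN, 218, 212, 274 and 227 CPM in KO RT and 158, 129, 181 and 265 CPM in KO TN. Groups overlapped in both genotypes, and KO TN replicate 5 lay among the RT values. It fell 1.29-fold in the average (log2 change -0.37 ± 0.14 SE, adjusted p = 0.0460 by edgeR). The call was lost with RLE scaling (-0.35, 0.0583), with no filter on low counts (-0.34, 0.0732) and without any 1 of 12 of the 16 libraries, where the change was -0.28 to -0.39 (highest adjusted p 0.118, without KO TN replicate 3). At RT, 8 skeletal muscle markers summed to 103 to 598 CPM in WT and 79.2 to 3770 CPM in KO. At TN they summed to 55.1 to 4520 CPM in WT and 65.0 to 5940 CPM in KO. Of the 8, 0 were called by housing in the average, and their part in the Slc27a1 result was not tested. Vldlr had an averaged change of -0.35 ± 0.17 (adjusted p = 0.110), and passed without KO RT replicate 9 (-0.44, 0.0258) or WT TN replicate 24 (-0.44, 0.0356). Cd36, second by level per length, had a change of 0.07 with an interval of -0.17 to 0.31.

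**Figure D5:**
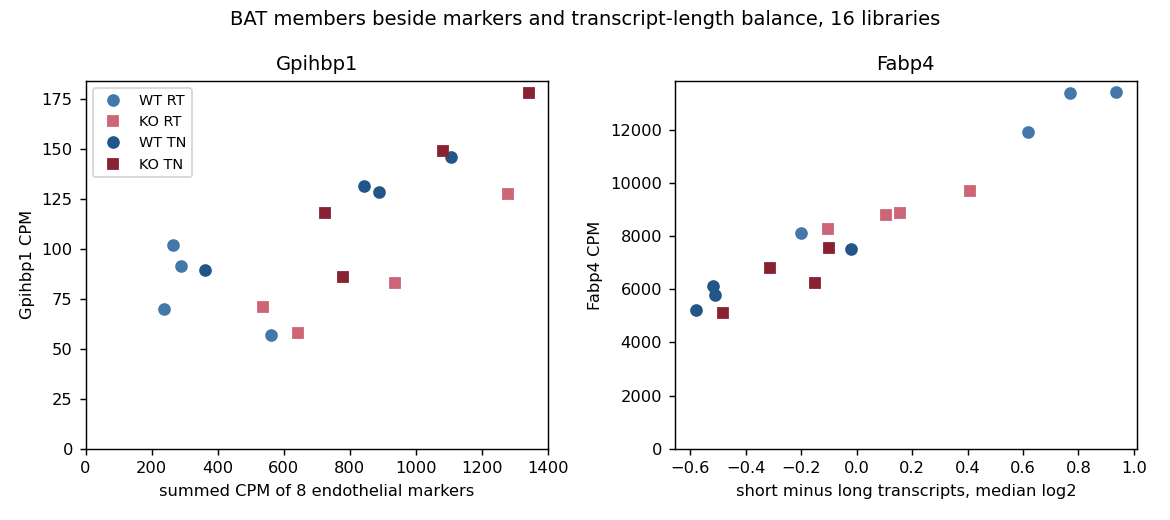
The 16 BAT libraries by group, with Gpihbp1 in CPM against the summed CPM of 8 endothelial markers (left) and Fabp4 in CPM against the short minus long transcript balance in log2 (right). The 3 lowest endothelial sums, 236 to 291 CPM, are WT RT libraries, and on the right the 3 libraries with a balance of 0.62 or more have the highest Fabp4, 11910 to 13410 CPM.

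These BAT calls stand before a wide background. In WT, 1 of 10 members was called, beside 32.5% of all genes tested, and in the average 3, beside 38.5%. In KO it was 0, beside 15.2%, with 2 at an unadjusted p under 0.05 and 0 by DESeq2. Non-overlap held for 1 member in each genotype, beside 27.2% of all genes in WT and 21.3% in KO. The median log2 change of the members was 0.06 in the average, against 0.09 over all genes, and the share of members called was not above that of other genes in either genotype or in the average.

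In liver and eWAT edgeR called no member by housing. For liver the count was 0 of 10 in WT (beside 0.0227% of all genes), in KO (0.114%) and in the average (0.279%), with 2, 3 and 3 members at an unadjusted p under 0.05. DESeq2 called 1 in the liver average, Cd36 (0.60, adjusted p = 0.0208), which edgeR put at 0.59 ± 0.16 (adjusted p = 0.130). In eWAT the counts were 0 in WT (beside 0.0%), in KO (1.74%) and in the average (2.22%), with 0, 2 and 2 at an unadjusted p under 0.05. Slc27a4 was at 46.8 ± 3.85 and 56.8 ± 7.46 CPM in WT and KO at RT, and 40.0 ± 6.52 and 44.2 ± 2.80 CPM at TN (averaged log2 change -0.29 ± 0.09, adjusted p = 0.0788). It was the 1 member that DESeq2 called there (0.0263), and edgeR called it without KO RT replicate 16 (0.0314) or WT TN replicate 23 (0.0327). Groups overlapped for all 10 members in both tissues and genotypes, where 3.93% (liver WT), 7.25% (liver KO), 4.10% (eWAT WT) and 9.25% (eWAT KO) of all genes did not overlap.

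The housing effect differed between tissues for 3 of 10 members, beside 18.3% of all genes. With the replicate block no member kept such a call. Gpihbp1 (adjusted p = 0.0270, edgeR F test) had a change in BAT above that in eWAT by 0.86 ± 0.24, with -0.21 in eWAT. Slc27a1 (adjusted p = 0.0108) had 0.51 in liver and -0.37 in BAT, a difference of 0.87 ± 0.22. Cd36 (adjusted p = 0.0206) had 0.59 in liver and 0.07 in BAT, a difference of 0.51 ± 0.17. Fabp4 was not shown to differ (adjusted p = 0.683). No member had a called interaction of genotype and housing in any tissue, and neither did any other gene (0.0% in each), with 1 liver member, Gpihbp1, and 0 in BAT and eWAT at an unadjusted p under 0.05. DESeq2 called 0 members as well.

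Pairs of gene and tissue without a call differed in how tightly they were held. In eWAT, Cd36 kept within 3215 to 4704 CPM over all 16 libraries, while Fabp4 ran from 8808 to 21070 CPM, the highest value being KO RT replicate 10. Slc27a1 there lay between 248 and 479 CPM, with KO TN replicate 5 highest. Its interaction of genotype and housing in eWAT was 0.50 ± 0.24 SE (adjusted p = 0.668 by edgeR), with means of 363 and 310.3 CPM in WT and KO at RT and 295.5 and 357 CPM at TN. In BAT, Slc27a4 stayed within 18.9 to 32.4 CPM, and its averaged changes were 0.06 by genotype (interval -0.19 to 0.31) and -0.08 by housing (-0.33 to 0.17). BAT Cd36 lay between 1618 and 2683 CPM, both extremes at RT. In liver, Fabp1 spanned 2625 to 5650 CPM with its lowest values in KO RT replicates 9 and 10, and Fabp2 spanned 157 to 398 CPM with its lowest in KO RT replicate 9. Liver Slc27a1 lay at 7.01 to 18.1 CPM. Liver Vldlr lay at 1.42 to 9.86 CPM, where the 4 WT RT libraries alone covered the whole range. The liver Vldlr change at TN, from 5.99 ± 1.20 to 3.58 ± 1.44 CPM, was -0.74 ± 0.46 (adjusted p = 0.437).

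Other genes of fatty acid uptake were taken from 3 lists of 43 genes: the lipoprotein lipase system, other carriers and acyl-CoA synthetases, and transcription factors. In liver 38 were tested. At RT edgeR called 0 (4 at an unadjusted p under 0.05). At TN 3 fell in KO and 0 rose, and the same 3 fell in the average, beside 0.0853% of all genes called at RT, 3.18% at TN and 5.19% in the average. They were Pparg, the PPARgamma gene (11.5 ± 2.26 CPM in KO TN and 27.1 ± 6.40 in WT TN, log2 change -1.24 ± 0.32, adjusted p = 0.0476), Acsl1, an acyl-CoA synthetase (-0.74 ± 0.18, 0.0266), and Got2, a mitochondrial aminotransferase also described as a fatty acid binding protein of the membrane (-0.63 ± 0.13, 0.0119). In the average the changes were -0.93, -0.52 and -0.38, and there the Pparg call was lost with no filter (0.0605) and without any 1 of 6 libraries (-0.86 to -0.91), and that of Got2 without KO RT replicate 19 (-0.35, 0.0501). The Pparg call at TN was lost with RLE scaling (0.0531), with no filter (0.0992) and without any 1 of 12 libraries (-1.12 to -1.38). That of Acsl1 was lost with only the 8 libraries compared (0.0644) and without any 1 of 6 libraries, KO TN replicates 2, 4 and 5 and WT TN replicates 1, 6 and 7 (-0.59 to -0.76). The median of the 38 was -0.20 at TN, against 0.05 over all genes.

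In eWAT 40 of the 43 were tested. At RT Cavin1, a coat protein of caveolae, fell in KO (log2 change -0.52 ± 0.13, adjusted p = 0.0299 by edgeR) and Ppargc1a, a coactivator of PPARs, rose (1.302 ± 0.31, 0.0230), from 3.60 to 8.88 CPM. Both were called in the average as well, at -0.40 and 0.90. These 2 of 40 stand beside 4.34% of all genes called at RT and 8.46% in the average, shares close to or above that of the lists. At RT the Cavin1 call was lost with only the 8 libraries compared and without any 1 of 7 libraries (-0.38 to -0.53), and that of Ppargc1a without KO RT replicate 10 or WT RT replicates 13, 15 or 18 (1.07 to 1.298). At TN 0 were called, with 2 at an unadjusted p under 0.05. By housing 1 fell in the average, beside 2.22% of all genes called: Scarb1, the HDL receptor (-0.48 ± 0.12, 0.0420), a call lost without any 1 of 12 libraries (-0.40 to -0.51).

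In BAT 39 were tested, and 0 were called by genotype, with 7, 3 and 5 at an unadjusted p under 0.05 at RT, at TN and in the average. By housing 7 rose and 12 fell at TN in the average, 4 and 11 in WT, and 6 and 6 in KO. The lipoprotein lipase system had 2 higher and 4 lower of 12 in the average, the other carriers and synthetases 5 and 5 of 14, and the transcription factors 0 and 3 of 13. Acsl5, an acyl-CoA synthetase, fell from 624 ± 48.4 to 54.95 ± 6.48 CPM in WT and from 622 ± 209.6 to 57.6 ± 10.3 CPM in KO (averaged log2 change -3.47 ± 0.15, adjusted p = 6.46e-11). Fabp5, another fatty acid binding protein, fell as well (-1.90 ± 0.14, 2.57e-08), and so did Acsl3, another synthetase (-1.82 ± 0.14, 4.21e-08). In WT alone Angptl8, which acts with other ANGPTL proteins on lipoprotein lipase, was among the 3 with the largest fall (-2.62 ± 0.59, 0.00467). It went from 59.2 ± 47.8 CPM (range 34.45 to 130.9) to 9.63 ± 5.80 CPM (range 5.61 to 18.2). Among those higher were Angptl4, an inhibitor of lipoprotein lipase (from 198 ± 83.6 to 531 ± 48.4 CPM in WT, averaged change 1.53 ± 0.17, 2.66e-06), Lrp1, a lipoprotein receptor (1.00 ± 0.10, 1.04e-06), and Got2 (0.95 ± 0.19, 0.00103). In KO alone the Got2 call was lost without KO RT replicate 9, 10 or 19 or KO TN replicate 2 or 5 (0.68 to 0.94). These counts stand beside the same 38.5%, 32.5% and 15.2% of all genes as those of the members.

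For the member with the smallest adjusted p in each tissue over the comparisons at 1 temperature or in 1 genotype, the genes whose level followed it most closely over the 16 libraries were listed by Pearson r of log2(CPM + 0.1). In liver these included Ermp1 (r = 0.940), Gpat3 (0.926), Wwtr1 (0.923) and Vnn1 (0.922) for Cd36, among 11842 genes. In BAT they were Atp6v1f (0.977), Sap18 (0.975), Psma3 (0.970), Fmc1 (0.970) and Ndufa7 (0.969) for Fabp4, among 12310 genes. In eWAT they were Mest (0.978), Trp53inp2 (0.964), Gpc1 (0.960), Mrc2 (0.960) and Cmip (0.956) for Vldlr, among 13005 genes. The points share library, scaling and group, so these values describe likeness in these libraries and carry no test.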

How the data were processed

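RNA from 48 samples (12 groups of 4, 16 per tissue) had been sequenced. Values are read counts per Ensembl gene, deposited by the authors as 1 file per sample. Per the submitters' processing notes, fastp, STAR 2.6.1d and featureCounts 1.5.0-p3 were used with GRCm38/mm10. The annotation and strand setting are not given in the sources used here. Libraries were made with NEBNext Ultra and read as pairs, per the labels' protocols. Of 56748 identifiers 91.8% matched a symbol, and matched identifiers held at least 94.8% of each library's counts. Replicates differed by more than sampling noise in all 72 pairs.

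Genes were filtered with edgeR's filterByExpr (minimum count 10), scaled by TMM and tested with edgeR 4.0.16 in R 4.3.3 (quasi-likelihood, robust, 1 mean per group, two-sided, Benjamini-Hochberg over all genes tested, threshold 0.05). All 10 members passed the filter in each tissue. Each tissue was fitted over its 16 libraries, and differences between tissues over 48. SEs are the log2 change divided by the square root of F, with 95% intervals from the t distribution. CPM values are scaled within a tissue. Levels between genes are per kb of the longest coding transcript (GENCODE M21). On simulated data, 151 of 200 genes changed 2-fold were called for liver KO minus WT at TN, with 9 of the other genes in a fit of 16962. The changed genes were drawn only from those above a minimum mean level, with noise independent between genes. The share called therefore does not cover genes at low levels, such as Vldlr in liver.

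Alternatives were RLE scaling, no filter, DESeq2 1.42.0, only the 8 libraries compared, each library left out, and a replicate block. Members, lists and markers were chosen with earlier results of these data known. Pathway genes were named as up to 3 per direction and comparison with the largest change among those called with a mean of at least 1 CPM. Marker lists covered brown and white adipocytes, hepatocytes, macrophages, endothelium, enterocytes, epididymis, skeletal muscle and lymph node. Skeletal muscle markers summed to 55.1 to 5940 CPM in BAT, and lymph node and B cell markers to 212 to 663 CPM in eWAT. Floors of 3 counts cover counting error only. A gene among those most like Cd36 in liver is not reported here.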

Additional observations from a re-analysis of the deposited data

Results flagged for a closer look

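Of the 120 groups of 4 libraries formed by the 10 genes, 7 held a library far from the other 3 by Dixon's ratio of the gap to the group's range. Chance alone gives about 1 in 20. Fabp1 in BAT KO TN replicate 2 was at 154.5 CPM, against 0.909 to 26.4 CPM in the others. Fabp2 in the same library was at 7.17 CPM, against 0 to 0.558 CPM, and in BAT WT RT replicate 15 it was at 1.07 CPM, against 0 to 0.0339 CPM. Fabp4 in liver KO RT replicate 19 was at 75.96 CPM, against 7.70 to 12.5 CPM. Vldlr in BAT WT TN replicate 24 was at 219 CPM, against 140.1 to 144 CPM. Gpihbp1 was lowest in liver WT RT replicate 12, at 17.6 CPM against 23.3 to 24.1 CPM, and highest in eWAT KO TN replicate 5, at 99.2 CPM against 68.2 to 71.4 CPM.

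The genotype effect differed between the 3 tissues for Cd36 (adjusted p = 0.000876, edgeR) and Slc27a4 (adjusted p = 0.00921). The housing effect differed for Cd36 (adjusted p = 0.0206), Gpihbp1 (adjusted p = 0.0270) and Slc27a1 (adjusted p = 0.0108). These calls come from the fit without a replicate block.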

How the results depend on the processing

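No log2 change reversed its direction under the alternatives run. Of the recomputed log2 changes, 1055 kept their side of the threshold, 26 newly passed it and 95 no longer passed. Of the recomputed counts of members called, 640 stayed within 1.5 times and 29 moved. DESeq2 called 1 member in liver by genotype at RT in place of 0, 2 at TN in place of 1, 1 by housing in the liver average in place of 0, 2 by housing in BAT WT in place of 1, and 1 in place of 0 in eWAT by genotype at TN and by housing in the average. It called 7 in place of 6 between BAT and eWAT. With only the 8 libraries compared, 2 were called in liver by genotype at TN and 2 by housing in BAT WT. Leaving out 1 library at a time, the counts ran from 0 to 1 (liver genotype at RT), 0 to 3 (liver genotype at TN), 2 to 3 (liver genotype average), 1 to 2 (BAT housing in WT), 0 to 1 (BAT housing in KO), 2 to 4 (BAT housing average), 1 to 2 (eWAT genotype at RT and in the average) and 0 to 1 (eWAT housing in KO and in the average). In eWAT the average by genotype reached 2 without KO RT replicate 16 or WT TN replicate 23, and housing in KO reached 1 without KO RT replicate 16. RLE scaling and no filter each left 2 in the BAT housing average. The cause of these changes was not tested. Depth limits Fabp2 and Slc27a5 in fat, where counts reach 0, and Fabp1, where they fall to 7 in BAT and 16 in eWAT.

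No paired analysis was possible within a tissue because no groups compared there share a replicate number. Across tissues a replicate block left 1 member, Cd36, with a genotype effect that differed between tissues in place of 2, and 0 with such a housing effect in place of 3, and changed no count of tissue differences. Over 35 pairs of same-numbered libraries the correlation of deviations was over 0.1 in 1 pair, with a median of 0.016 (lowest -0.606, highest 0.114), against 0.005 for different numbers. These correlations cannot decide whether a number is the same animal, because deviations in different tissues need not move together. In the labels each number kept to the same genotype and housing in all tissues where it occurred.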
